A study of Mus musculus with 50 samples.

Results

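Ebf1, Ebf2, Ebf3, Zfhx3 and Zfhx4 are 5 transcription factor genes of young neurons, described here across 18 RNA libraries from E13.5 mouse whole brain. They were chosen by gene symbol from a deposited table of read counts that holds 11708 genes, and all 5 symbols were found in it. The 5 genes had been selected on earlier results of the same libraries, so their differences below are descriptions, and the p-values printed beside them are not independent evidence.

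The study compared mouse brains carrying mutations of Gtf2i or of Gtf2ird1, a pair of related transcription factor genes from the chromosomal segment lost in Williams syndrome. The libraries fall into 6 groups of 3. The gtf2i comparison holds wt, gtf2i and gtf2i/gtf2i brains, and the ird1 comparison holds its own wt together with ird1 and ird1/ird1 brains. The label with the mutant name once was read as 1 mutant allele, and the label with the name on both sides of a slash as both alleles mutant. All 18 brains were of strain FVB/ANTJ and stage E13.5, with no treatment named. The labels do not describe the mutant alleles, nor say whether each library came from 1 embryo, so the p-values measure only the spread between these libraries.

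The Ebf proteins form dimers through a helix-loop-helix region and bind DNA through a separate domain, and they switch on as neural progenitors leave the cell cycle. Ebf1 is known for striatal neurons and, outside the brain, for the B lymphocyte lineage, Ebf2 for Purkinje cells and migrating neurons, and Ebf3 for migrating neurons, among them Cajal-Retzius cells. Zfhx3 and Zfhx4 encode very large proteins with many zinc fingers and several homeodomains. Zfhx3 is known for promoting the exit from the cell cycle and for neuronal differentiation, and Zfhx4 for binding a chromatin remodelling complex.

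Library totals ranged from 3239117 to 7371483 reads assigned to genes. Levels are given as CPM, counts scaled to a common library total, with trimmed mean of M values (TMM) factors. Gtf2i fell from 624 ± 30.7 CPM in wt to 82.5 ± 0.797 CPM in gtf2i/gtf2i (SD, n = 3 each), a log2 fold change of -2.93 (edgeR adjusted p = 2.79e-11). Gtf2ird1 was higher in both homozygous mutants. In gtf2i/gtf2i its mean was 267 CPM, against 92.4 CPM in wt (log2 fold change 1.52, edgeR adjusted p = 5.61e-07). In the ird1 comparison it had a mean of 98.2 CPM in wt and a higher one, 223 CPM, in ird1/ird1 (log2 fold change 1.18, edgeR adjusted p = 3.92e-05), and the labels do not say which part of that gene was altered. One library with both mutant alleles, gtf2i/gtf2i replicate 3, and 1 control library, replicate 2 of the wt in the ird1 comparison, lay at the opposite ends of the first principal component of all genes (25.1 and -42.5), which held 39.2% of the variance. The control library also had the smallest total, 3239117 reads. Markers of the cortex, midbrain, hindbrain and neurons (Tbr1, Otx2, En1, Tubb3) were in the table, and of 10 listed B lymphocyte genes 0 were. The smallest count of any gene in each library was 2.90 to 3.09 CPM. Every gene in the table was thus counted in every library, and a missing gene may only have been low in some, so neither is a check of the tissue.

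The genes lie on 5 chromosomes of the mm10 (GRCm38) assembly, by RefSeq gene spans: Ebf1 at chr11:44618100-45008096, Ebf2 at chr14:67233292-67430952, Ebf3 at chr7:137193671-137322805, Zfhx3 at chr8:108279311-108961636 and Zfhx4 at chr3:5218218-5415861. RefSeq promoter windows (250 bases before to 50 bases after a start, GRCm38.p6) were found for 3 of the 5 genes, with a pair of starts for Ebf1. They are shown for their sequence only, and a link to the levels of the 5 genes was not tested. Capitals mark matches to CANNTG, the site of helix-loop-helix proteins, in Ebf1, and to CCCNNGGG, the core of the site bound by Ebf dimers, in Ebf3. The Ebf1 window shown is that of the second start, chr11:44619978-44620277, plus strand. The Ebf3 window is chr7:137314396-137314695, minus strand, and the Zfhx3 window is chr8:108714394-108714693, plus strand. Each of these windows lies inside the gene span given above and not at its 5′ end. The window of the first Ebf1 start, chr11:44617850-44618149, is not printed. All are written 5′ to 3′ in the direction of transcription.
Ebf1: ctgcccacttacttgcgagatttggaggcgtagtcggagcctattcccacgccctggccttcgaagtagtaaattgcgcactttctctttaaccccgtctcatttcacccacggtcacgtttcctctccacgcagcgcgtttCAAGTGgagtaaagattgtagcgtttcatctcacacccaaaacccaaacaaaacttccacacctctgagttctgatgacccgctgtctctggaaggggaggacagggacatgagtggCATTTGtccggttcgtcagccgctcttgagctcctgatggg
Ebf3: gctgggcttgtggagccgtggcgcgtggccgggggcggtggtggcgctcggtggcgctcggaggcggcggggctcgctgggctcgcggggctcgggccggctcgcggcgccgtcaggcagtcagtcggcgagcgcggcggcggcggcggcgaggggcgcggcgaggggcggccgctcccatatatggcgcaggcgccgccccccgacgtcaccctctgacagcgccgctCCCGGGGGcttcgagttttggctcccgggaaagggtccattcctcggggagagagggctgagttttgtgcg
Zfhx3: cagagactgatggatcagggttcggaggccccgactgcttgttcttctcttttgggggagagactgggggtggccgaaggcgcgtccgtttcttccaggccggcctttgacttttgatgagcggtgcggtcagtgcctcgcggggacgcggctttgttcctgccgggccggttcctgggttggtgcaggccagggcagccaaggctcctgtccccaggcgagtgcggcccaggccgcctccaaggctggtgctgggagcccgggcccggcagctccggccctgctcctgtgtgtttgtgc

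The 3 windows differ in base composition. The Ebf3 window holds 46 CG pairs at 77% GC, more CG pairs than 98.6% of all promoter windows, and the Zfhx3 window 21 CG pairs at 67.3% GC. The Ebf1 windows hold 9 CG pairs at the first start and 17 at the second, against a median of 7 over all windows. On both strands, CANNTG matched at 2 places in the second Ebf1 window and at none in the others, and 72.3% of the 32851 promoter windows of this length hold it. CCCNNGGG matched once, in Ebf3, and 13.7% of windows hold it. GGATTA, a site bound by proteins of the Gtf2i family, is in 7.06% of windows and matched in 0 of these 4, as did TATAAA, which is in 13.6%. The matches do not overlap each other.

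Zfhx3 had the most reads of the 5 genes, but its transcript is long. The deposited transcript lengths are 17152 bases for Zfhx3 and 13874 for Zfhx4, longer than 99.8% and 99.3% of the genes in the table, against 5981 for Ebf1, 5204 for Ebf2 and 4994 for Ebf3. Per kilobase of transcript, the mean level over the 18 libraries was highest for Ebf3, at 39.8 CPM per kilobase. Zfhx3 followed at 23.1, Zfhx4 at 15.8, Ebf1 at 14.3 and Ebf2 at 10.7 CPM per kilobase. The lowest count of any of the 5 genes was 102 reads, for Ebf2, which alone gives a counting error of 9.9%.

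The order of the 6 groups was nearly shared by the 5 genes. The mean was highest in gtf2i/gtf2i and second highest in wt of the gtf2i comparison for all 5 genes, and lowest in wt of the ird1 comparison for all 5. Neighbouring groups in that order were mostly closer than the larger of their SDs. For Ebf1 the only gap above 1 SD was between ird1 (76.5 ± 8.42 CPM) and wt of the ird1 comparison (58.3 ± 9.7 CPM), at 1.88 times the larger SD. The lowest step was also above 1 SD for Ebf2 (1.11), Ebf3 (1.64) and Zfhx4 (1.31), and below it for Zfhx3 (0.731). For Zfhx4 the step from ird1/ird1 (222 ± 20.5 CPM) to ird1 (188 ± 30.2 CPM) was 1.11 SD as well.

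**Figure D1:**
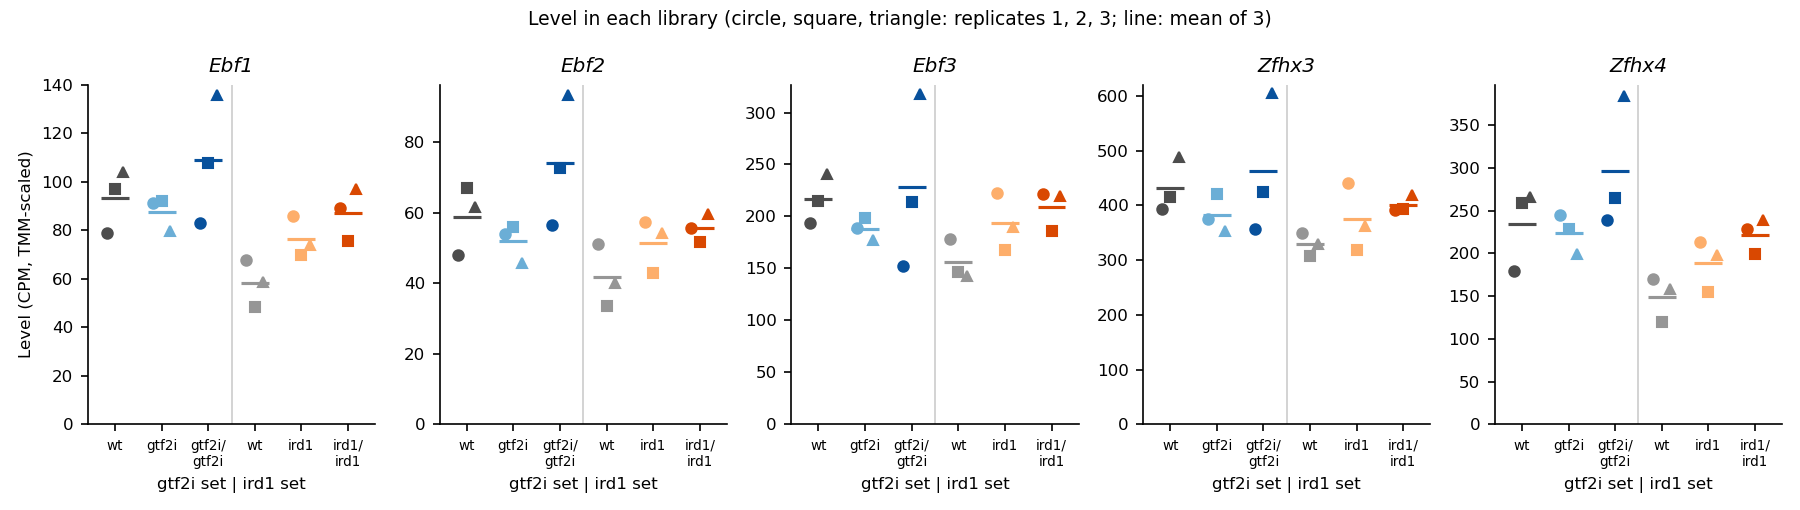
Level of each gene in CPM (linear axis from 0) in each of the 18 libraries, with the gtf2i comparison left and the ird1 comparison right of the grey line in each panel, and horizontal lines at the mean of 3 libraries. In all 5 panels the dark blue triangle, gtf2i/gtf2i replicate 3, is the highest point, and the wt of the ird1 comparison (light grey) has the lowest mean.

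The 5 genes moved together between single libraries, also within a group. The highest of the 18 values was in gtf2i/gtf2i replicate 3 for all 5 genes, from 0.63 (Zfhx3) to 0.86 (Zfhx4) above the 18-library mean on the log2 scale. The lowest value was in wt replicate 2 of the ird1 comparison for 4 genes (-0.83 for Zfhx4), and in wt replicate 3 of that comparison for Ebf3. Pearson's r of log2 CPM between pairs of the 5 genes over 18 libraries ran from 0.819 (Ebf3 with Zfhx4) to 0.969 (Ebf1 with Zfhx4), and Spearman's rho from 0.701 to 0.948. After the group means were subtracted, r ran from 0.81 to 0.938. Without the 2 libraries farthest from the median of the first gene of each pair, r ran from 0.69 to 0.93. These values describe libraries that share their depth and their cell makeup, and many other genes followed the same course: r was above 0.7 for 14.5% of all genes with Ebf1 and for 17% with Zfhx4, but for 3.45% with Ebf3. In bulk tissue, fewer cells of a type and less RNA per cell cannot be told apart.

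**Figure D2:**
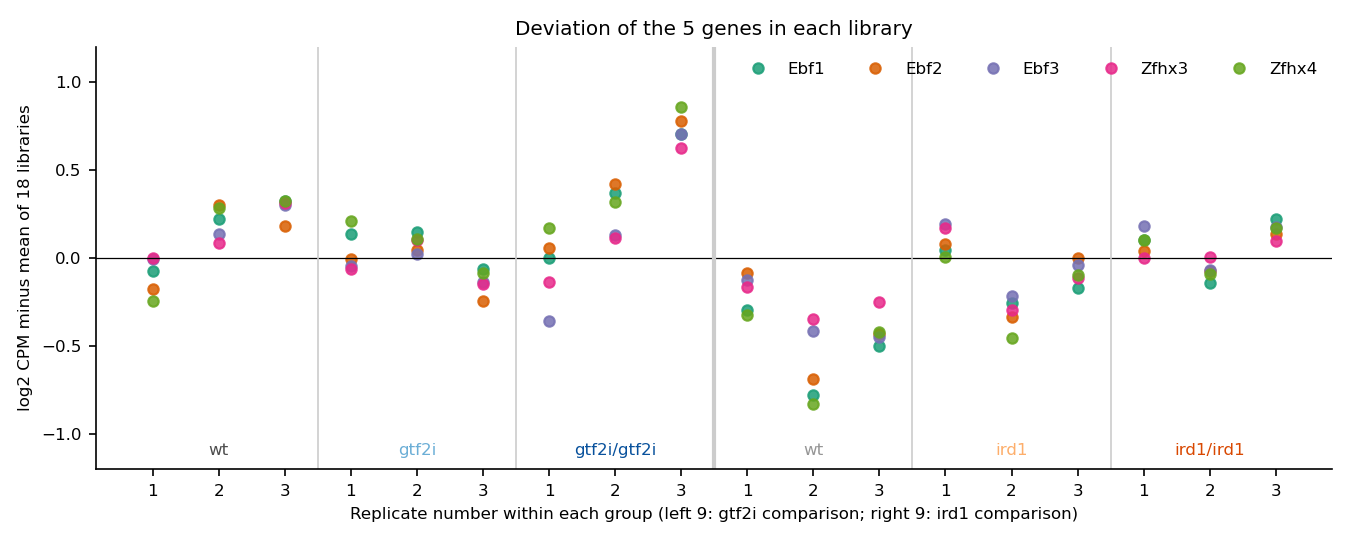
Deviation of log2 CPM from the mean of the 18 libraries (vertical axis) for each library (horizontal axis, replicates without order within each of 6 groups), with 1 coloured point per gene. The points of a library mostly lie on 1 side of 0: all 5 are above 0.6 in gtf2i/gtf2i replicate 3 and all 5 are below 0 in each wt library of the ird1 comparison.

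The genes most like each of the 5 over the 18 libraries were partly shared, Hipk2 among those of Ebf1, Ebf2 and Zfhx4, and Robo1 and Pax5 among those of Ebf3 and Zfhx3. For Ebf1 they were Zfhx4 (r = 0.969), Foxp1 (0.942), Ebf2 (0.942) and the kinase gene Hipk2 (0.937). For Ebf2 they were Zfhx4 (0.952), Ebf1 (0.942), Hipk2 (0.935) and Ift74 (0.913). Zfhx4 itself was followed by Ebf1 (0.969), Hipk2 (0.965), the neuronal transcription factor gene Onecut2 (0.96) and Pou2f1 (0.957). Ebf3 was nearest to Zfhx3 (0.94), the axon guidance receptor gene Robo1 (0.933), Pax5 (0.931), a transcription factor gene of the midbrain-hindbrain boundary, and Tfap2b (0.908). For Zfhx3 they were Pax5 (0.956), Robo1 (0.95), Ebf3 (0.94) and Tfap2d (0.933). Ebf3 ranked 946th among the genes most like Zfhx4, although their r was 0.819. Ranked by Spearman's rho instead, between 0 and 2 of each set of 4 genes remained.

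The ird1 comparison asks how the brain transcriptome differs in ird1 mutants, whose allele the labels do not describe. All 5 genes had a higher mean in ird1/ird1 than in wt, with ird1 between them, but none passed the test across all genes. Ebf1 was at 67.8, 48.4 and 58.7 CPM in the 3 wt libraries, at 85.9, 69.7 and 73.8 CPM in ird1, and at 89.3, 75.4 and 97 CPM in ird1/ird1. Both mutant groups lay above every wt library. Zfhx4 was at 169, 119 and 158 CPM in wt, at 213, 155 and 198 CPM in ird1, and at 228, 199 and 239 CPM in ird1/ird1. The ird1/ird1 libraries lay above every wt library, and ird1 replicate 2 fell among them. Ebf3 was at 179, 146 and 143 CPM in wt and at 221, 186 and 220 CPM in ird1/ird1, and Ebf2 at 51.2, 33.6 and 40.2 CPM in wt and at 55.8, 51.6 and 59.7 CPM in ird1/ird1. For Zfhx3 the wt values were 350, 308 and 329 CPM and the ird1/ird1 values 392, 393 and 419 CPM. The ird1/ird1 libraries were thus above all wt libraries for 5 of 5 genes, where 15.1% of all genes showed this. In ird1 against wt the same held for 1 gene, Ebf1 (3.14% of all genes).

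In ird1/ird1 against wt the log2 fold changes were 0.55 (SE 0.13) for Ebf1, 0.38 (SE 0.145) for Ebf2, 0.41 (SE 0.116) for Ebf3, 0.27 (SE 0.106) for Zfhx3 and 0.55 (SE 0.131) for Zfhx4. The edgeR adjusted p was 0.296 for each, and 0.00854% of all genes were called, that is, had an adjusted p under 0.05. The only gene called was Gtf2ird1 itself. The unadjusted p was under 0.05 for 5 of 5 genes (0.000697 to 0.0205), and 7.7% of all genes were higher at that level. DESeq2 called 0 of the 5 as well. In ird1 against wt the log2 values lay between 0.19 (Zfhx3) and 0.38 (Ebf1), with an edgeR adjusted p of 0.997. Of the 5, 3 had an unadjusted p under 0.05, against 1.29% of all genes rising at that level, and 0% of all genes were called by edgeR (1 gene by DESeq2). In ird1/ird1 against ird1 the log2 values were 0.09 to 0.22, with edgeR adjusted p from 0.766 to 0.833. Of the 5 genes 0 had an unadjusted p under 0.05, and 0% of all genes were called (1 gene by DESeq2).

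Leaving out wt replicate 2 lowered all 5 values. Those of ird1/ird1 against wt became 0.45 for Ebf1, 0.27 for Ebf2, 0.37 for Ebf3, 0.23 for Zfhx3 and 0.43 for Zfhx4, with an edgeR adjusted p of 0.653. Those of ird1 against wt became 0.27 for Ebf1, 0.17 for Ebf2, 0.27 for Ebf3, 0.14 for Zfhx3 and 0.20 for Zfhx4, with an edgeR adjusted p of 1.00. Other libraries moved these values too. Without wt replicate 1, Ebf2 was 0.59 in ird1/ird1 against wt and 0.48 in ird1 against wt, and without ird1 replicate 1 the values of ird1 against wt were 0.06 (Zfhx3) to 0.29 (Ebf1). Library titles open with a number whose meaning the labels do not state. Among the libraries numbered 11610, both ird1/ird1 libraries were above both wt libraries for 5 of 5 genes, by 0.21 (Zfhx3) to 0.38 (Zfhx4) on the log2 scale of means. In the 1 pair numbered 11902 the difference was larger, from 0.45 (Zfhx3) to 1.00 (Zfhx4), and its wt library is replicate 2.

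**Figure D3:**
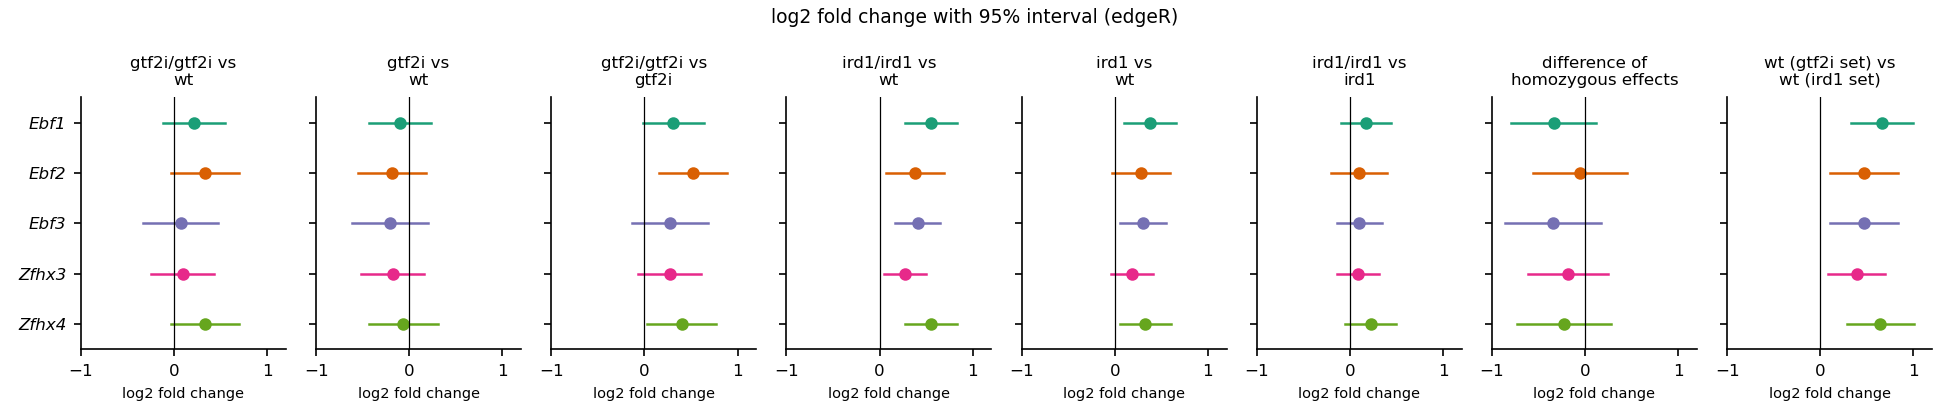
The log2 fold change of each gene (horizontal axis) with its 95% interval in 8 comparisons, from edgeR. The intervals lie above 0 for all 5 genes in ird1/ird1 against wt and in the comparison of the wt groups, and cover 0 for all 5 in gtf2i/gtf2i against wt.

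In the gtf2i comparison the question is the effect of losing Gtf2i. The means of the 5 genes were lower in gtf2i and higher in gtf2i/gtf2i than in wt, and none passed the test against wt. The gtf2i/gtf2i libraries were the most spread of the 6 groups for all 5 genes. Ebf3 was at 194, 215 and 241 CPM in wt, at 189, 198 and 177 CPM in gtf2i and at 152, 214 and 318 CPM in gtf2i/gtf2i. The gtf2i/gtf2i libraries held both the lowest and the highest of the 9 values. Ebf1 was at 78.9, 96.9 and 104 CPM in wt, at 91.3, 92 and 79.7 CPM in gtf2i and at 83, 108 and 136 CPM in gtf2i/gtf2i. Ebf2 was at 48, 67.1 and 61.6 CPM in wt, at 54, 56 and 45.8 CPM in gtf2i and at 56.5, 72.8 and 93.4 CPM in gtf2i/gtf2i. For both genes the wt and gtf2i/gtf2i libraries overlapped, with gtf2i/gtf2i replicate 3 on top.

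The Zfhx genes showed the same spread. Zfhx3 was at 393, 416 and 488 CPM in wt, at 375, 421 and 354 CPM in gtf2i and at 357, 425 and 606 CPM in gtf2i/gtf2i. Zfhx4 was at 179, 258 and 266 CPM in wt, at 245, 228 and 200 CPM in gtf2i and at 239, 264 and 384 CPM in gtf2i/gtf2i. The coefficient of variation within gtf2i/gtf2i was 24.2% for Ebf1, 24.9% for Ebf2, 36.9% for Ebf3, 27.9% for Zfhx3 and 26.2% for Zfhx4, against 5.56% to 10.4% within gtf2i and 10.8% (Ebf3) to 20.5% (Zfhx4) within wt.

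None of the 5 genes was called in gtf2i/gtf2i against wt, where edgeR called 0.94% of all genes. The log2 fold changes were 0.22 (SE 0.154) for Ebf1, 0.33 (SE 0.168) for Ebf2, 0.07 (SE 0.189) for Ebf3, 0.09 (SE 0.157) for Zfhx3 and 0.33 (SE 0.172) for Zfhx4, with edgeR adjusted p from 0.396 to 0.923. At an unadjusted p under 0.05 there were 0, and DESeq2 called 0. Without gtf2i/gtf2i replicate 3 the values were 0.02 for Ebf1, 0.13 for Ebf2, -0.25 for Ebf3, -0.15 for Zfhx3 and 0.10 for Zfhx4. With its replicate 1 left out instead they were higher, from 0.25 (Zfhx3) to 0.50 (Ebf2), and without wt replicate 1 lower, from -0.0025 (Ebf3) to 0.21 (Ebf2). The 3 title numbers of this comparison each hold 1 library of each genotype. For all 5 genes gtf2i/gtf2i was above wt of the same number in 11619 and 12419 and below it in 12301, where Ebf3 differed by -0.50 on the log2 scale. With the title number as a block, edgeR called 624 genes in place of 110, but 0 of the 5. With the trend with transcript length removed as well, it called Zfhx4 (0.35, adjusted p = 0.0132), among 845 genes.

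In gtf2i against wt all 5 values were below 0, from -0.21 (Ebf3) to -0.07 (Zfhx4), with an edgeR adjusted p of 1.00, 0 genes at an unadjusted p under 0.05, 0 called by DESeq2 and 0.00854% of all genes called by edgeR. The only gene called there by edgeR was Gtf2i itself (adjusted p = 0.000501). Against gtf2i, the gtf2i/gtf2i values were 0.31 for Ebf1, 0.52 (SE 0.17) for Ebf2, 0.28 for Ebf3, 0.27 for Zfhx3 and 0.40 (SE 0.173) for Zfhx4. These 3 contrasts share libraries, so their values are not separate evidence. The smallest edgeR adjusted p was 0.125, for Ebf2, and 3.12% of all genes were called. Ebf2 was the 1 gene of the 5 whose gtf2i/gtf2i libraries were all above the gtf2i libraries, as for 9.17% of all genes. Ebf2 and Zfhx4 had an unadjusted p under 0.05, and 7.14% of all genes were higher at that level. Without gtf2i/gtf2i replicate 3 the values were 0.12 for Ebf1, 0.31 for Ebf2, -0.05 for Ebf3, 0.03 for Zfhx3 and 0.17 for Zfhx4, without replicate 1 they were 0.43 (Zfhx3) to 0.69 (Ebf2), and DESeq2 with all libraries called 0 of the 5. With the trend with transcript length removed, edgeR called Ebf2 (0.54, adjusted p = 0.0499) and Zfhx4 (0.46, adjusted p = 0.0186), and 513 of all genes in place of 365. With the title number as a block instead, edgeR called Ebf2 (0.50, adjusted p = 0.0384), and 892 of all genes.

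Whether the effects of the homozygous genotypes differ was tested in 1 fit on all 18 libraries. The gtf2i/gtf2i effect minus the ird1/ird1 effect was -0.34 (SE 0.22) for Ebf1, -0.05 (SE 0.243) for Ebf2, -0.34 (SE 0.247) for Ebf3, -0.19 (SE 0.206) for Zfhx3 and -0.23 (SE 0.243) for Zfhx4. The edgeR adjusted p ran from 0.498 to 0.936, and 0.171% of all genes were called. Of the 5 genes, 0 had an unadjusted p under 0.05 and 0 were called by DESeq2. Without gtf2i/gtf2i replicate 3 the differences were -0.53 for Ebf1, -0.26 for Ebf2, -0.66 for Ebf3, -0.43 for Zfhx3 and -0.46 for Zfhx4. Ebf3 was then the only 1 of the 5 called (edgeR adjusted p = 0.0399), in a fit that called 723 of all 11708 genes. Leaving out replicate 1 instead gave -0.17 for Ebf1, 0.11 for Ebf2, -0.12 for Ebf3, -0.03 for Zfhx3 and -0.09 for Zfhx4. With the trend of log2 fold change with transcript length removed, 3 of the 5 differences were above 0: Ebf2 at 0.0274, Zfhx3 at 0.111 and Zfhx4 at 0.0344.

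The wt groups of the comparisons also lay apart for the 5 genes. The wt of the gtf2i comparison was higher by 0.66 for Ebf1, 0.47 for Ebf2, 0.47 for Ebf3, 0.39 for Zfhx3 and 0.64 for Zfhx4 in log2 units. The edgeR adjusted p lay between 0.0689 and 0.0878. Its libraries were all above those of the other wt for 4 of 5 genes, all but Ebf2, where 16.3% of all genes showed this. All 5 had an unadjusted p under 0.05, and 17.1% of all genes were higher at that level, while edgeR called 0% of all genes and DESeq2 called 1354. DESeq2 called 2 of the 5, Ebf1 (adjusted p = 0.017) and Zfhx4 (adjusted p = 0.0263). At an unadjusted edgeR p under 0.05, 14 of 29 other postmitotic neuron factors and 9 of 20 pan-neuronal genes were higher, and 1 and 2 lower. Of 30 midbrain and hindbrain genes, 5 were higher and 0 lower. Of all genes, 15.6% were lower at that level. The part of these markers in the levels of the 5 genes was not tested. Leaving out replicate 1 of either wt group gave 3 edgeR calls (Ebf1, Ebf2 and Zfhx4), in fits that called 2076 (gtf2i comparison) and 1032 (ird1 comparison) of all 11708 genes. Leaving out any other wt library gave 0 calls. Without replicate 2 of the wt in the ird1 comparison the 5 values were 0.35 to 0.56, with a smallest edgeR adjusted p of 0.297, and without replicate 2 or 3 of the wt in the gtf2i comparison the smallest was 0.213 and 0.229. The ird1 effects above are measured against the lower of these wt groups, and comparison and wt group cannot be told apart.

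Transcript length moved with the same contrasts. Over all genes, the log2 fold change correlated with length at a Spearman's rho of 0.426 in ird1/ird1 against wt and 0.446 between the wt groups, and at -0.367 in the difference of effects, across genes that are not independent replicates. The 357 genes of at least 10000 bases, a length that Zfhx3 and Zfhx4 exceed, had a median log2 fold change of 0.23 in the former and 0.30 in the latter. With the length trend removed from each library, Zfhx3 in ird1/ird1 against wt went from 0.27 to -0.0043 and Zfhx4 from 0.55 to 0.32. Ebf1 became 0.45, Ebf2 0.31 and Ebf3 0.34. In gtf2i/gtf2i against wt, where rho was -0.047, the 5 log2 values moved little. The smallest edgeR adjusted p among them went from 0.396 to 0.0783, and the genes called from 110 to 294.

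**Figure D4:**
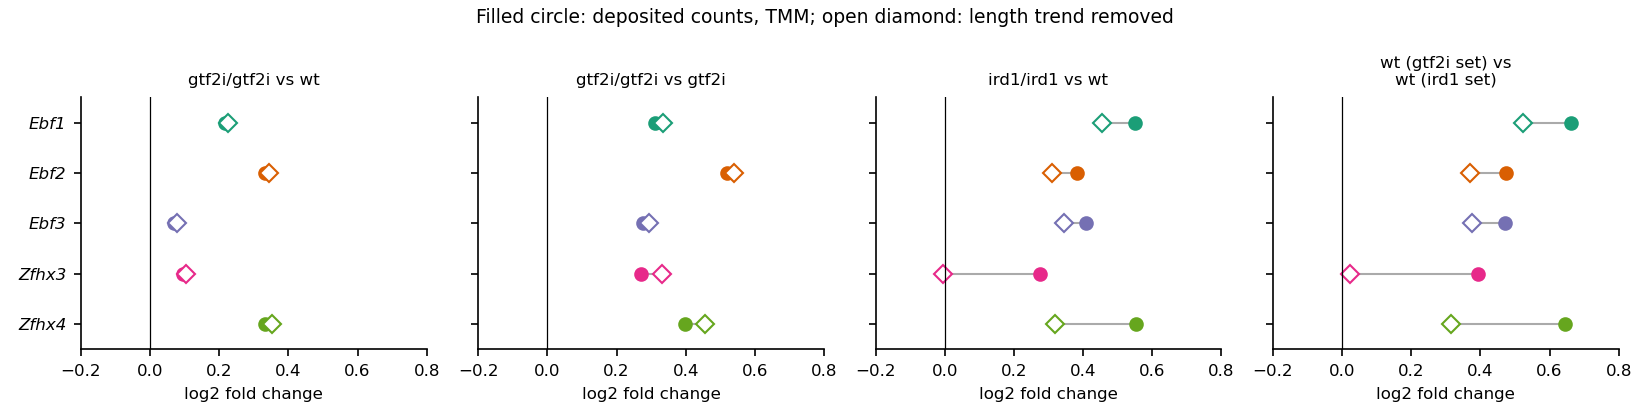
The log2 fold change (horizontal axis) of each gene before (filled circle) and after (open diamond) the trend with transcript length was removed, in 4 comparisons. Zfhx3 moved from 0.27 to -0.0043 in ird1/ird1 against wt and from 0.39 to 0.02 between the wt groups.

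The remaining family members and the partners of the Ebf proteins did not pass the test in any contrast fitted on all its libraries. The list holds Ebf4 and Zfhx2, the Ebf-binding zinc finger genes Zfp423 and Zfp521, the helix-loop-helix genes Tcf3, Tcf4 and Tcf12, and their inhibitors Id1 to Id4. All 11 were in the table and 0 were called. With 1 library left out, 0 to 1 fell and 0 rose in gtf2i/gtf2i against wt, and 0 to 1 rose and 0 to 1 fell against gtf2i. In gtf2i/gtf2i against wt their median log2 fold change was 0.01, against 0.00 for all genes, and in ird1/ird1 against wt 0.04. Ebf4 was low, at 18 CPM in wt and 17.1 CPM in gtf2i/gtf2i. Zfhx2 was at 192 and 178 CPM in these groups. Tcf4, a helix-loop-helix gene of many neurons, was at 303 CPM in wt and 243 CPM in gtf2i/gtf2i (log2 fold change -0.33, SE 0.114, edgeR adjusted p = 0.187), and in the ird1 comparison 235 CPM without and 291 CPM with both mutant alleles (0.29, SE 0.139, adjusted p = 0.312). Id1 had the largest positive value in gtf2i/gtf2i against wt, 0.45 (SE 0.216, edgeR adjusted p = 0.362).

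A few genes of neurogenesis passed the test in gtf2i/gtf2i. All list counts and named calls here and below are from fits without the title number as a block. Against wt those called 110 genes, and the fit with the block 624. Of 14 proneural and early neurogenesis genes, 3 fell, 1 rose and 10 did not pass the test against wt. With 1 library left out, 2 or 3 fell and 0 to 4 rose, 4 without gtf2i/gtf2i replicate 3, in a fit that called 1159 of all 11708 genes in place of 110. Neurod6 and Neurod2, which act in young cortical neurons, fell by 1.30 and 1.25 on the log2 scale, and Eomes, a gene of cortical intermediate progenitors, had -0.66. Nhlh2, a helix-loop-helix gene of newly born neurons, rose by 0.51 (edgeR adjusted p = 0.0379). Against gtf2i, Nhlh1 was called as well (0.42, edgeR adjusted p = 0.0448). With 1 library left out at a time, the Neurod6 and Neurod2 calls against wt were kept in 6 of 6 fits. The Eomes call was lost without wt replicate 1 or 3 or gtf2i/gtf2i replicate 2, and the Nhlh2 call without any 1 of the wt libraries or gtf2i/gtf2i replicate 2. Fitted on the libraries of gtf2i/gtf2i and wt alone, which called 31 genes in place of 110, the Eomes and Nhlh2 calls were lost too, as were those of Bcl11b, Pax3, Irx2, Hbb-y, Slc4a1 and Dlx1 described below. For Nhlh1 the call was kept only without gtf2i/gtf2i replicate 3.

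Of 29 other transcription factor genes of postmitotic neurons, 1 fell against wt, Bcl11b (-0.67, edgeR adjusted p = 0.0206), which is known for deep-layer cortical and striatal neurons, and 0 rose. Their median was -0.02. The Bcl11b call was lost without wt replicate 3 or without gtf2i/gtf2i replicate 1 or 2. Without gtf2i/gtf2i replicate 3, 6 of the 29 fell and 2 rose, in that fit with 1159 calls over all genes, and in the other 5 fits with 1 library left out 0 or 1 fell and 0 or 1 rose. Against gtf2i, Lhx1 (0.68) and Lhx5 (0.66), known for Cajal-Retzius cells and for neurons of the midbrain and hindbrain, rose, and Bcl11b (-0.80) and Lhx6 (-0.70), a gene of cortical interneurons, fell. The Lhx1 and Lhx6 calls were lost without gtf2i replicate 2 or 3, and the Lhx1 call also without gtf2i/gtf2i replicate 2. With 1 library left out, 1 to 3 of the 29 rose and 1 to 7 fell against gtf2i, 7 without gtf2i/gtf2i replicate 3, where 1376 of all genes were called in place of 365. Among 8 genes listed for Cajal-Retzius cells, Reln, the secreted protein of those cells, fell by 0.68 against wt (edgeR adjusted p = 0.00697), a call kept in 6 of 6 fits with 1 library left out. The other 7 did not pass the test, and the 8 split both ways: 4 were above 0, with a range of -0.68 to 0.59 and a median of -0.01, and 3 were higher and 3 lower at an unadjusted p under 0.05. Of all genes, 6.08% were higher and 8.3% lower at that level. Against gtf2i, 2 of the 8 fell and 1 rose, and 1 to 2 fell and 0 to 2 rose with 1 library left out. In ird1/ird1 against wt, where 1 of all 11708 genes was called, edgeR called 0 of the 14, 29 and 8 genes of these lists, with medians of -0.08, 0.13 and 0.02. At an unadjusted p under 0.05, 2 of the 14, 7 of the 29 and 0 of the 8 were higher, and 2, 1 and 1 were lower. Of all genes, 7.7% were higher and 8.4% lower there.

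Regional markers split by direction in gtf2i/gtf2i. Of 16 telencephalon genes, 6 fell and 0 rose against wt (median -0.52), Tbr1, a gene of early cortical neurons, at -0.65 among them. The 6 include Neurod6, Neurod2 and Eomes, which are on the proneural list as well. Of 30 midbrain and hindbrain genes, 3 rose and 0 fell (median 0.22): Nkx6-1 by 0.97, Pax3 by 0.82 and Irx2 by 0.53. The Tbr1 and Nkx6-1 calls were kept in 6 of 6 fits with 1 library left out. The Pax3 call was lost without wt replicate 1 or 3 or gtf2i/gtf2i replicate 2, and the Irx2 call without any 1 of the wt libraries or gtf2i/gtf2i replicate 2. In these fits, 3 (without wt replicate 3) to 7 telencephalon genes fell, and 1 (without wt replicate 3 or gtf2i/gtf2i replicate 2) to 6 midbrain and hindbrain genes rose. Without gtf2i/gtf2i replicate 3, where 6 rose, 2 fell (1159 calls over all genes). Against gtf2i, where 3.12% of all genes were called, 8 telencephalon genes fell and 12 midbrain and hindbrain genes rose, Tal2 by 1.00 among them (not called without gtf2i replicate 3). With 1 library left out 6 to 9 of the former fell. Of the latter 7 rose without gtf2i replicate 2 or gtf2i/gtf2i replicate 2, 5 without gtf2i replicate 3, and 8 to 13 in the other fits. In gtf2i against wt, 3 of the 30 midbrain and hindbrain genes were above 0 (median -0.21) and 12 of the 16 telencephalon genes (median 0.06). In ird1/ird1 against wt 23 and 4 were (medians 0.13 and -0.06), and in ird1 against wt 25 and 2 (medians 0.17 and -0.08). None of these was called. Telencephalon genes summed to 1216, 1159 and 1047 CPM in gtf2i/gtf2i, against 1399 to 1610 CPM in wt. Midbrain and hindbrain genes summed to 1917, 2218 and 2579 CPM, against 1920 to 1979 CPM in wt. Replicate 3, where all 5 Ebf and Zfhx genes peaked, was the lowest of the 18 libraries for the former and the highest for the latter. The part of this regional makeup in the levels of the Ebf and Zfhx genes was not tested.

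**Figure D5:**
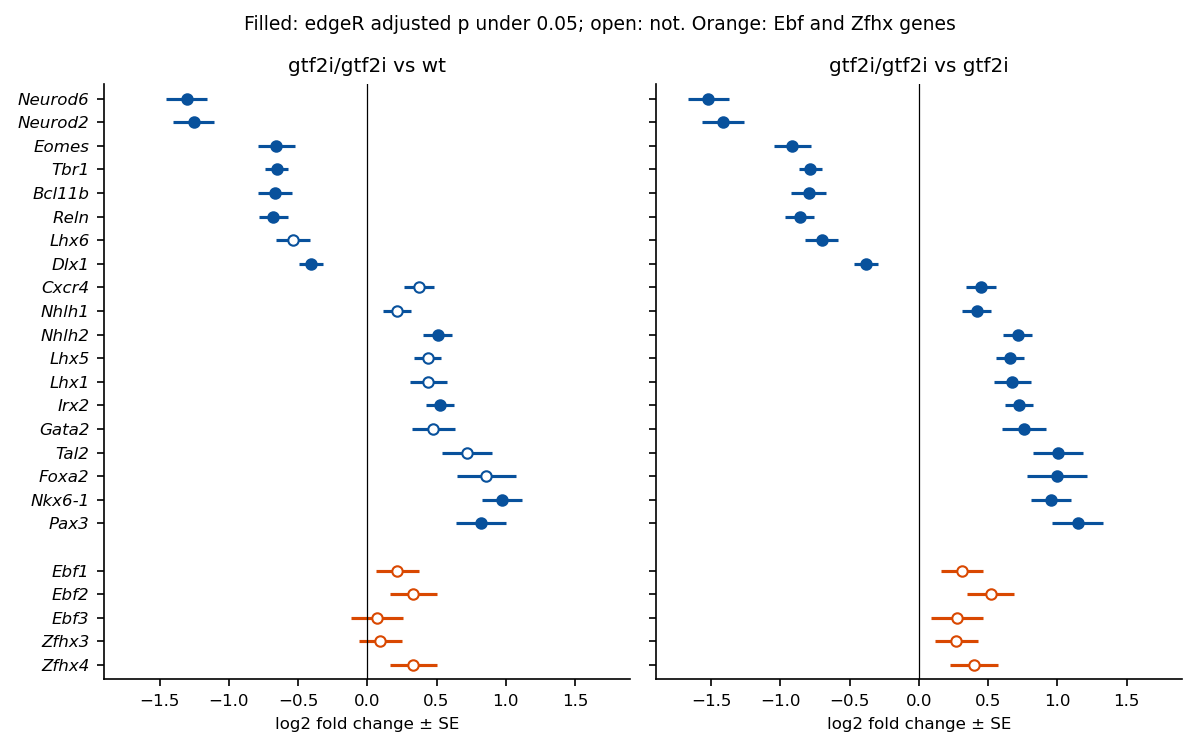
The log2 fold change ± SE (horizontal axis) of 19 genes from the neurogenesis and regional lists (blue, picked after their values were seen) and of the 5 Ebf and Zfhx genes (orange) in gtf2i/gtf2i against wt (left) and against gtf2i (right). Filled points had an edgeR adjusted p under 0.05. The orange points are all open and lie between 0.07 and 0.52.

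The gtf2i/gtf2i libraries also differed among themselves in markers of neurons as a whole. The summed level of 20 pan-neuronal genes was 6660, 6811 and 9091 CPM in gtf2i/gtf2i, against 8143 to 9241 CPM in wt and 8467 to 8748 CPM in gtf2i. Replicates 1 and 2 were thus the lowest of all 18 libraries and replicate 3 the second highest. Against wt 0 of the 20 genes were called with all libraries (6 were lower at an unadjusted p under 0.05, as were 8.3% of all genes), and 13 fell without replicate 3, in a fit that called 1159 of all 11708 genes in place of 110. Among the 18 values of each gene, Ebf1, Ebf2, Ebf3, Zfhx3 and Zfhx4 ranked 10, 7, 16, 13 and 6 from the top in gtf2i/gtf2i replicate 1, and 2, 2, 7, 4 and 3 in replicate 2. Markers of mesenchyme and meninges summed to 2345, 2706 and 1792 CPM in gtf2i/gtf2i and to 1648 to 1843 CPM in wt. Of these 18 genes 0 were called with all libraries and 9 rose in that fit without replicate 3. Red blood cell genes summed to 5790, 9184 and 6895 CPM in gtf2i/gtf2i and to 4091 to 5314 CPM in wt, and 2 of 8 genes were called, Hbb-y (0.76) and Slc4a1 (0.83). Both calls were lost without wt replicate 2 or 3 or gtf2i/gtf2i replicate 2, and the Slc4a1 call also without gtf2i/gtf2i replicate 1, and 0 to 4 of the 8 rose with 1 library left out. The 3 gtf2i/gtf2i libraries also held the 3 highest sums of the radial glia genes (3714 to 4232 CPM, against 3148 to 3504 CPM in wt), of which 0 of 15 rose and 1 fell, Tnc (-1.43, edgeR adjusted p = 0.00639). In the fit without gtf2i/gtf2i replicate 3, 4 of the 15 rose and 2 fell. Against gtf2i 3 rose and 1 fell, with 0 to 4 rising when 1 library was left out. They held the 3 lowest sums of the choroid plexus genes (196 to 234 CPM, against 283 to 370 CPM in wt), of which 1 of 5 fell, Ttr (-1.63, edgeR adjusted p = 0.000532). Mean Ttr was 213 CPM in the wt libraries and 69 CPM in gtf2i/gtf2i, and the other 4 genes did not pass the test, with values of up to 0.78 and 2 of the 5 above 0. Of 12 striatal genes, 1 fell, Dlx1 (-0.41), a call lost without any 1 of the wt libraries or gtf2i/gtf2i replicate 2. Among the ird1/ird1 libraries, edgeR called 0 genes of the neuron, mesenchyme and red blood cell lists against wt (7, 1 and 0 were higher at an unadjusted p under 0.05, as were 7.7% of all genes), and the pan-neuronal sum was 7741 to 8837 CPM against 7609 to 8070 CPM in wt. Their part in the levels of the Ebf and Zfhx genes was not tested.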

How the data were processed

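RNA was measured in 18 libraries. The deposited table gives unnormalized counts of reads for each gene, and it also holds 1 transcript length per gene. Ribosomal RNA was removed before library preparation, per the labels' protocols. Trimmomatic, STAR, HTSeq and build mm10 are named in the submitters' processing notes, without versions or roles. The strand setting is not given in the sources used here, nor how reads that match more than 1 of Ebf1, Ebf2 and Ebf3 were counted. The smallest count in each library was 2.90 to 3.09 CPM, so genes low in any library are not analysed here.

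The 5 genes and all gene lists were chosen with earlier results of these data known. Counts were fitted with edgeR 4.0.16 in R 4.3.3 (TMM, filterByExpr, which removed 0 genes, and the quasi-likelihood test) on the 9 libraries of each comparison, or on all 18 for the difference of effects and for the wt groups, with Benjamini-Hochberg adjustment over 11708 genes. Named list genes were up to 6 called genes with the largest change per list, or the 2 largest values, and the 4 genes of highest r with each of the 5. Some were left out, and Nhlh1, Lhx5, Lhx6, Tal2 and others of the plotted genes were picked within the lists after their values were seen. Alternatives were DESeq2 1.42.0, its size factors, other count filters, only the groups compared, each library left out, the title number as a replicate block and a lowess trend with length (span 0.3) removed. Chi-square per degree of freedom between replicates was 2.9 to 29.5 in 18 pairs, so none was taken as a repeat. Replicate numbers are names only. Deviations from group means of same-numbered libraries correlated at 0.377, 0.103 and 0.52 for gtf2i/gtf2i and wt. For gtf2i and wt they correlated at 0.28, 0.354 and 0.0485, and for gtf2i/gtf2i and gtf2i at 0.0614, 0.114 and 0.0576. Libraries of different numbers were not compared, so these values cannot decide whether the numbers pair the libraries. The labels do not state what the numbers mark, and the main fits use no block. No molecular identifiers were named, so counting errors treat amplified reads as separate molecules and are lower limits. The 32 chromatin and input samples were not analysed here.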

Additional observations from a re-analysis of the deposited data

Results flagged for a closer look

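The effects of the homozygous genotypes differed by edgeR's test of the difference itself for 3 of the genes named. For Gtf2i, the targeted gene of 1 comparison, gtf2i/gtf2i minus ird1/ird1 was -2.88 on the log2 scale (adjusted p = 3.89e-14). For Neurod6 it was -1.38 (edgeR adjusted p = 0.00271) and for Neurod2 -0.97 (edgeR adjusted p = 0.0318). None of Ebf1, Ebf2, Ebf3, Zfhx3 and Zfhx4 passed this test, with edgeR adjusted p from 0.498. Groups of 3 are too small for the test of single outlying samples.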

How the results depend on the processing

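Over 610 values of the 5 genes under the alternatives, 22 changed sign and 16 gained a call. None of the 5 was called to begin with, so none could lose a call. With the block by title number and the length trend removed together, Zfhx4 was called in gtf2i/gtf2i against wt, a count of 1 (0.35, edgeR adjusted p = 0.0132), in a fit that called 845 of 11708 genes in place of 110. The replicate block alone changed no call there, in gtf2i against wt, in the ird1 comparison or in the difference of effects. Same-numbered libraries are not shown to be paired in any of these contrasts. In gtf2i/gtf2i against gtf2i the counts were 1 with the replicate block (Ebf2, 0.50), 2 with the length trend removed (Ebf2 and Zfhx4) and 3 with both (Zfhx3 as well). Those fits called 892, 513 and 1097 genes in place of 365. Between the wt groups, which share no title number, no paired fit was possible, and DESeq2 called 2. With single libraries left out, the count of calls among the 5 was 0 to 1 for the difference of effects and 0 to 3 between the wt groups.

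Signs changed as follows. With the length trend removed, and with the block added, Zfhx3 was -0.0043 and -0.0059 in ird1/ird1 against wt, and -0.0967 and -0.0942 against ird1. In the difference of effects, Ebf2 was 0.0274 and 0.0297, Zfhx3 0.111 and 0.106 and Zfhx4 0.0344 and 0.0422 in these fits. With single libraries left out, the ranges were -0.25 to 0.30 for Ebf3 and -0.15 to 0.25 for Zfhx3 in gtf2i/gtf2i against wt, -0.228 to 0.0374 for Zfhx4 in gtf2i against wt, -0.0477 to 0.503 for Ebf3 in gtf2i/gtf2i against gtf2i, -0.0093 to 0.19 for Ebf2 and -0.0058 to 0.23 for Zfhx3 in ird1/ird1 against ird1, and -0.26 to 0.11 for Ebf2 in the difference of effects. The cause was not tested. Over all genes in gtf2i/gtf2i against wt, 110 were called by edgeR, 310 by DESeq2, 294 after removal of the length trend, 31 on only the groups compared and 624 with the block. With 1 library left out the count was 28 (without wt replicate 3) to 1159 (without gtf2i/gtf2i replicate 3). Against gtf2i the block gave 892 in place of 365, and 1 library left out gave from 67 (gtf2i replicate 2) up to 1376 (gtf2i/gtf2i replicate 3). For the difference of effects, DESeq2 called 84 and the block 83 in place of 20, and 1 library left out gave 12 to 723. DESeq2 also called 6 in place of 1 in gtf2i against wt and 3 in place of 1 in ird1/ird1 against wt.

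With 3 libraries a group, SEs of 0.106 to 0.189 on the log2 scale for the effects of gtf2i/gtf2i and ird1/ird1 limit what could be called.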
